A study of Mus musculus with 2 samples.

Results

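The Wnt pathway was described in the central nervous system of the mouse embryo through 49 genes: 15 Wnt ligands, Wls, which carries lipid-modified Wnt proteins to the cell surface, 10 Frizzled receptors, 2 coreceptors, 8 secreted modulators, 10 cytoplasmic genes and 3 nuclear factors. The rule names them as ligands, receptors and pathway components and uses no level, though the list was drawn up with earlier results of these data known, and all 49 were found among 43346 Ensembl genes. The tissue was C57BL/6J central nervous system at embryonic day 11.5, from littermates of both sexes, with no allele or treatment named. Polyadenylated RNA was sequenced in paired, strand-specific reads, in 2 libraries labelled as biological replicates. They form 1 group, with no contrast between conditions and hence no test. The SD over n = 2 measures only the spread between these libraries, and both carry 1 donor label, so they may share a source of animals.

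In the canonical branch of the pathway, a Wnt ligand joins a Frizzled receptor to the coreceptor Lrp5 or Lrp6, Dishevelled is recruited, and the complex of Axin, Apc and Gsk3b stops marking beta-catenin for destruction. Beta-catenin, the product of Ctnnb1, then acts with the DNA-binding factors Lef1, Tcf7, Tcf7l1 and Tcf7l2. In the embryonic brain, Wnt1 is known from the midbrain and its border with the hindbrain, Wnt3a and Wnt8b from the cortical hem and its surroundings, and Wnt7a and Wnt7b as neural signals to growing blood vessels. Fewer cells of a type and less RNA per cell cannot be told apart in such whole-tissue RNA.

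Exons that were skipped in part of the transcripts are shown first, because they are where the pathway's own RNA differed in sequence within this tissue. A small exon was counted where junction reads into it, out of it and around it each reached 50. The 49 genes alone were searched, so no share over all genes stands beside the count. Such small exons were found in 8 of the 49 genes, and nothing particular to the pathway is read from this. Of these, 4 are printed, each with the exon in capitals and 10 bases of the neighbouring exon in lower case on either side, read along the gene from GENCODE M21 transcripts. On mm10 they lie at chr17:26192516-26192623 on the plus strand (Axin1), chr16:38217113-38217151 on the plus strand (Gsk3b), chr3:131204933-131204973 on the plus strand (Lef1) and chr6:72648801-72648842 on the minus strand (Tcf7l1).

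Axin1: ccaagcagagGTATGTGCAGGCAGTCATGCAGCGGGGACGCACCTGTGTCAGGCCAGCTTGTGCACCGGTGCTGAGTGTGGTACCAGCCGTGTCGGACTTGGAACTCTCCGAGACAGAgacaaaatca
Gsk3b: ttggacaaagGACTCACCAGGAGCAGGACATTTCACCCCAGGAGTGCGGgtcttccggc
Lef1: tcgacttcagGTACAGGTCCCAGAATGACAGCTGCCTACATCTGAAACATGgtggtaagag
Tcf7l1: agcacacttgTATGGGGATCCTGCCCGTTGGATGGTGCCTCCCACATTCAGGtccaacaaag

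The Axin1 exon adds 36 codons to the scaffold of the destruction complex, and all of its 108 bases are coding in GENCODE M21. The Gsk3b exon adds 13 codons to the kinase that marks beta-catenin, and the Tcf7l1 exon adds 14 codons to a factor that often acts as a repressor. The Lef1 exon has 41 bases, a length that is not a multiple of 3. Of these, 32 lie before the stop codon in the annotated transcripts that hold the exon, so transcripts with and without it end in different reading frames.

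The libraries held 126358805 and 111687579 expected counts in replicates 1 and 2, of which 4.67% and 3.30% lay outside Ensembl genes. They differed in markers of the body axis. The 8 caudal Hox genes listed, which mark trunk levels of the neural tube and body, summed to 6.41 TPM (transcript abundance per length and depth) in replicate 1 and 189 TPM in replicate 2, and 8 of 8 were at least 2-fold lower in replicate 1. Muscle and somite markers summed to 27.1 TPM in replicate 1 and 112 TPM in replicate 2, with 6 of 7 lower in replicate 1. Neural progenitor markers summed to 3885 TPM in replicate 1 and 1941 TPM in replicate 2, with all 7 at 1 TPM or more in both. Most of that sum was Vim, at 2643 TPM in replicate 1 and 1153 TPM in replicate 2. Midbrain and isthmus markers summed to 194 TPM in replicate 1 and 97.5 TPM in replicate 2. Endothelial markers summed to 207 TPM in replicate 1 and 267 TPM in replicate 2, and 8 markers of mesenchyme and meninges to 689 TPM in replicate 1 and 687 TPM in replicate 2. That sum is mostly collagen RNA: Col1a1, Col1a2 and Col3a1 were above 0 on the log2 scale, the other 5 below it, and the median was -0.60. What was sampled and replicate error cannot be told apart as sources of a difference between the libraries, and marker values are given beside the genes called at least 2-fold apart.

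Most of the listed genes were present. At 1 TPM or more in both libraries there were 47 of the 49 genes, against 60.8% of the 21474 protein-coding genes. Of 4 Wnt ligands outside the list, 1 reached that level, and of 11 other secreted modulators 7 did. The exceptions among the 49 were ligands: Wnt10a had 0.83 TPM in replicate 1 and 0.58 TPM in replicate 2, from 162 and 97 counts, and Wnt10b had 0.57 TPM in replicate 1 and 1.05 TPM in replicate 2, from 99 and 150 counts. Levels ran across the 49 genes from a mean of 0.705 TPM for Wnt10a to 302 TPM for Ctnnb1, with a median of 15.2 TPM. For scale, the median of the protein-coding genes at 1 TPM or more in both libraries was 20.2 TPM. Ligands were the lowest of the roles with several genes, with a median of 5.07 TPM, below the Frizzled receptors at 14.7 TPM, the nuclear factors at 25.3 TPM and the cytoplasmic genes at 41.0 TPM. The order of the 49 levels was close in both libraries, with a Spearman correlation of 0.922 across these genes, which are not independent replicates.

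**Figure D1:**
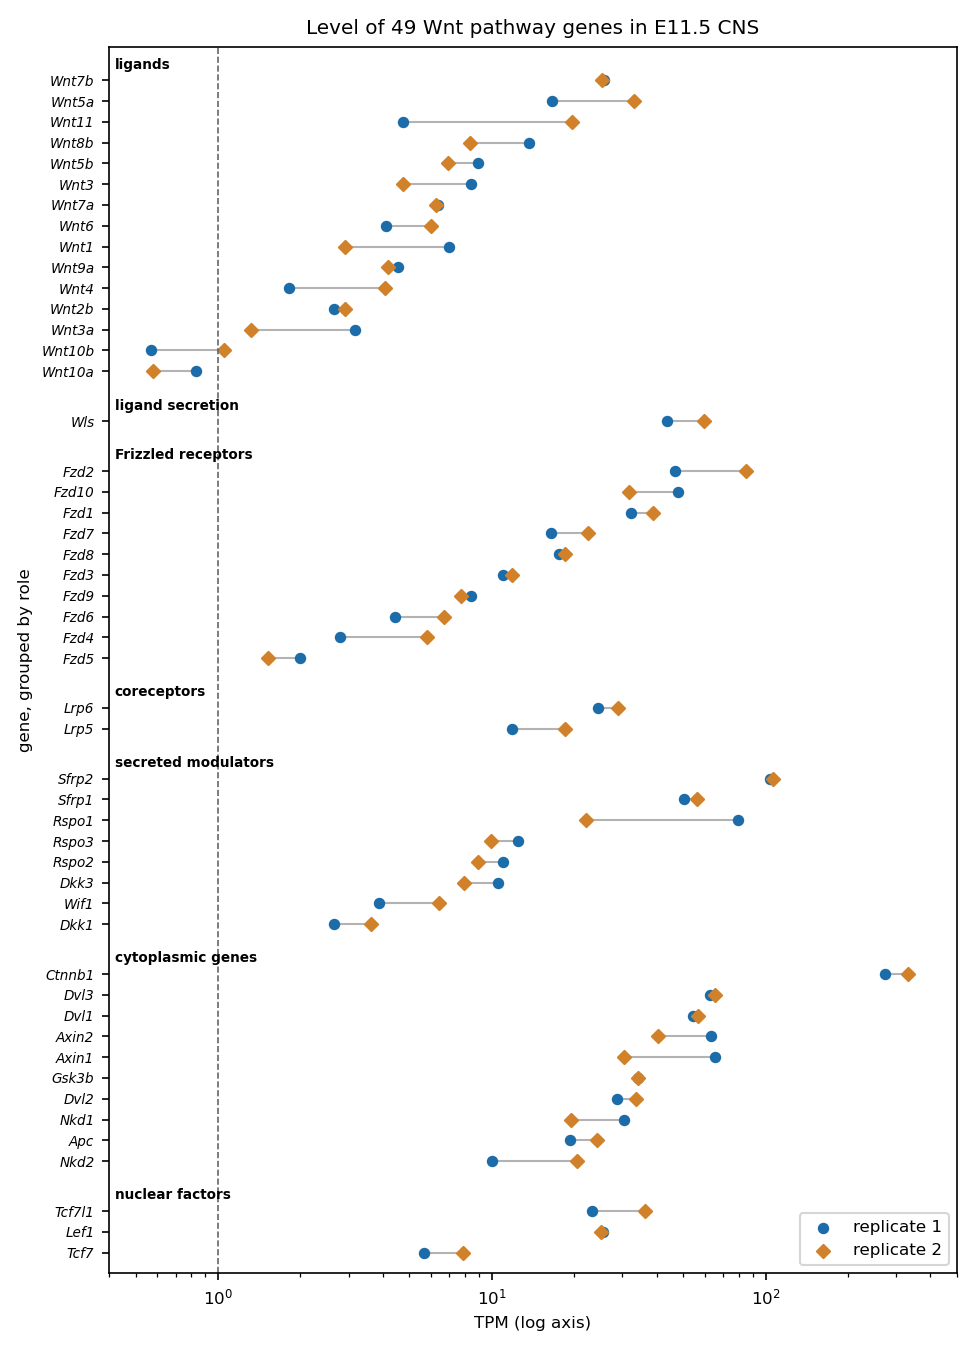
TPM of each of the 49 genes on a log axis, grouped by role and ordered by mean within a role, with replicate 1 as circles and replicate 2 as diamonds joined by a line, and a dashed line at 1 TPM. Wnt10a and Wnt10b are the genes with a point left of the dashed line, and Wnt11 and Rspo1 have the longest lines, from 4.74 TPM in replicate 1 to 19.6 TPM in replicate 2 and from 79.5 TPM in replicate 1 to 22.0 TPM in replicate 2.

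Among the ligands, Wnt7b and Wnt5a led. Wnt7b, one of the neural signals to vessels, had 25.6 TPM in replicate 1 and 25.3 TPM in replicate 2, a mean of 25.5 ± 0.212 TPM (SD, n = 2). Wnt5a, which mostly signals without beta-catenin and is known for tissue outgrowth, had 16.6 TPM in replicate 1 and 33.1 TPM in replicate 2, a mean of 24.9 ± 11.6 TPM (SD, n = 2). The Wnt7b values fell inside the Wnt5a range, so the order of the pair was not settled: Wnt7b was higher in replicate 1 and Wnt5a in replicate 2. Wnt7b made up 23.5% of the summed TPM of the 15 ligands in replicate 1 and 19.9% in replicate 2, and Wnt5a 15.3% in replicate 1 and 26.0% in replicate 2. The third by mean was Wnt11, with 4.74 TPM in replicate 1 and 19.6 TPM in replicate 2, and the fourth was Wnt8b, with 13.7 TPM in replicate 1 and 8.36 TPM in replicate 2. All 15 ligands together summed to 109 TPM in replicate 1 and 127 TPM in replicate 2.

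Paralogous ligands were unequal in level. Wnt7b stood 4.03 times above Wnt7a in replicate 1 and 4.04 times in replicate 2, since Wnt7a had 6.36 TPM in replicate 1 and 6.27 TPM in replicate 2. Wnt3 stood 2.66 times above Wnt3a in replicate 1 and 3.60 times in replicate 2. The ratio of Wnt5a to Wnt5b was less steady, 1.87 in replicate 1 and 4.80 in replicate 2, with Wnt5b at 8.91 TPM in replicate 1 and 6.90 TPM in replicate 2. The count ratios of Wnt5a and Wnt5b were -0.69 and 0.61 on the log2 scale, replicate 1 over replicate 2. Wnt10a over Wnt10b changed sides, at 1.46 in replicate 1 and 0.552 in replicate 2. The steady Wnt7 ratio and the shifting Wnt5 and Wnt10 ratios are values within each library, so they do not depend on how the libraries were scaled.

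Libraries were compared gene by gene as a log2 ratio of scaled counts, replicate 1 over replicate 2, and called apart where the counts summed to 100 or more and the ratio reached 2-fold. All 49 genes had that many counts. Replicate 1 was at least 2-fold higher for 4 of them, where the share of all 16511 genes with 100 counts was 5.05%, and at least 2-fold lower for 1, where the share of all genes was 6.34%. The other 44 lay within 2-fold. With total counts in place of TMM the libraries split less evenly, with 3.70% of all genes higher and 8.15% lower in replicate 1, and 3 and 2 of the 49. The all-gene shares depend on the minimum count: with none they were 10.4% higher and 17.9% lower, where 4 and 1 of the 49 were called, and at 1000 counts 3.67% and 3.26%, where 3 and 1 of 46 were called. Nothing particular to the 49 is read from these counts. Their median log2 ratio was 0.07, beside 0.01 for all genes, whose middle 50% ran from -0.35 to 0.35.

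The genes that were higher in replicate 1 were 3 ligands and 1 R-spondin. Wnt1, at chr15:98789857-98793837 (mm10, plus strand), had 6.96 TPM in replicate 1 and 2.91 TPM in replicate 2, from 1310 and 467 counts. Its log2 ratio was 1.46, with a 95% counting interval of 1.30 to 1.61. Wnt3a, at chr11:59248033-59290752 on the minus strand, had 3.16 TPM in replicate 1 and 1.32 TPM in replicate 2, and the same log2 ratio of 1.46 (1.25 to 1.68). Both are midline and signalling-centre ligands of the brain, and in both the libraries stood well apart, with replicate 1 high.

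Wnt3, at chr11:103774150-103817957 on the plus strand, had 8.42 TPM in replicate 1 and 4.75 TPM in replicate 2, and its log2 ratio of 1.02 (0.91 to 1.13) sat at the threshold. It fell short of 2-fold with total counts or log2(TPM + 1), and on log2(TPM + 1) Wnt3a did too, at 0.84. Without the added 1, the TPM ratio was 2.39 for Wnt3a and 1.77 for Wnt3. Rspo1, a secreted protein that keeps Frizzled receptors on the cell surface, lies at chr4:124986430-125009099 on the plus strand. It had 79.5 TPM in replicate 1 and 22.0 TPM in replicate 2, with 5141 and 1934 counts and a log2 ratio of 1.38 (1.30 to 1.46). Replicate 1 was the high library for each of these genes.

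Markers of the regions where these ligands are known were also higher in replicate 1. En2, En1, Pax5 and Otx2, regulators of midbrain identity, had log2 ratios of 1.84, 1.35, 1.36 and 1.02, while Pax2 of the same list had -1.65 and Fgf8 and Lmx1b had 0.30 each. All 7 markers of cortical hem and dorsal telencephalon were above 0, with a median of 0.95 and summed levels of 295 TPM in replicate 1 and 184 TPM in replicate 2, Rspo3 of the 49 among them. Of the roof plate markers, 7 of 8 were above 0, with a median of 0.57, and their summed level was 257 TPM in replicate 1 and 318 TPM in replicate 2. Neural progenitor markers were above 0 in 7 of 7, with a median of 0.90 and the summed levels given above. No marker of the 4 lists was at 0 in either library, and their part in the Wnt differences was not tested.

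Wnt11 was the gene that was lower in replicate 1. Wnt11 lies at chr7:98835112-98855195 on the plus strand and is known for cell movements in the early embryo and for heart and kidney. It had 4.74 TPM in replicate 1 and 19.6 TPM in replicate 2, from 438 and 1743 counts, with a log2 ratio of -2.02 (-2.18 to -1.87). Replicate 2 was 4.06-fold higher, the largest difference among the 49. The caudal Hox genes had a median log2 ratio of -4.94 and the muscle and somite markers -4.42. Neural crest markers had a median of -1.21 with 3 of 6 at least 2-fold lower and summed levels of 42.4 TPM in replicate 1 and 73.7 TPM in replicate 2. Surface ectoderm markers had a median of -1.18 with 4 of 7 lower and summed levels of 35.9 TPM in replicate 1 and 55.3 TPM in replicate 2. Of the mesenchyme markers, Prrx1 had -1.71, Twist1 -0.93, Pdgfrb -0.92, Foxc2 -0.88 and Foxc1 -0.31. The rest of that list went the other way, with Col1a1 at 0.86, Col3a1 at 0.42 and Col1a2 at 0.22. None of these markers was at 0 in either library, and their part in the Wnt11 difference was not tested.

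Just inside the threshold on the low side was Wnt4, with a log2 ratio of scaled counts of -0.96 (interval -1.10 to -0.82). Its TPM, 1.82 in replicate 1 and 4.06 in replicate 2, had a ratio of 0.448 and so passed 2-fold. On the high side, Wnt8b, known from the hippocampal primordium, had a log2 ratio of 0.91. Of the 15 ligands, 10 were above 0, Wnt2b only with TMM or DESeq2 scaling and not by total counts or TPM, and their log2 ratios ran from -2.02 to 1.46, the widest range of the roles. Wnt7a and Wnt7b moved little and alike, with log2 ratios of 0.22 and 0.21. Wnt2b, Wnt6 and Wnt9a were within 2-fold, with mean levels of 2.79, 5.07 and 4.35 TPM.

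**Figure D2:**
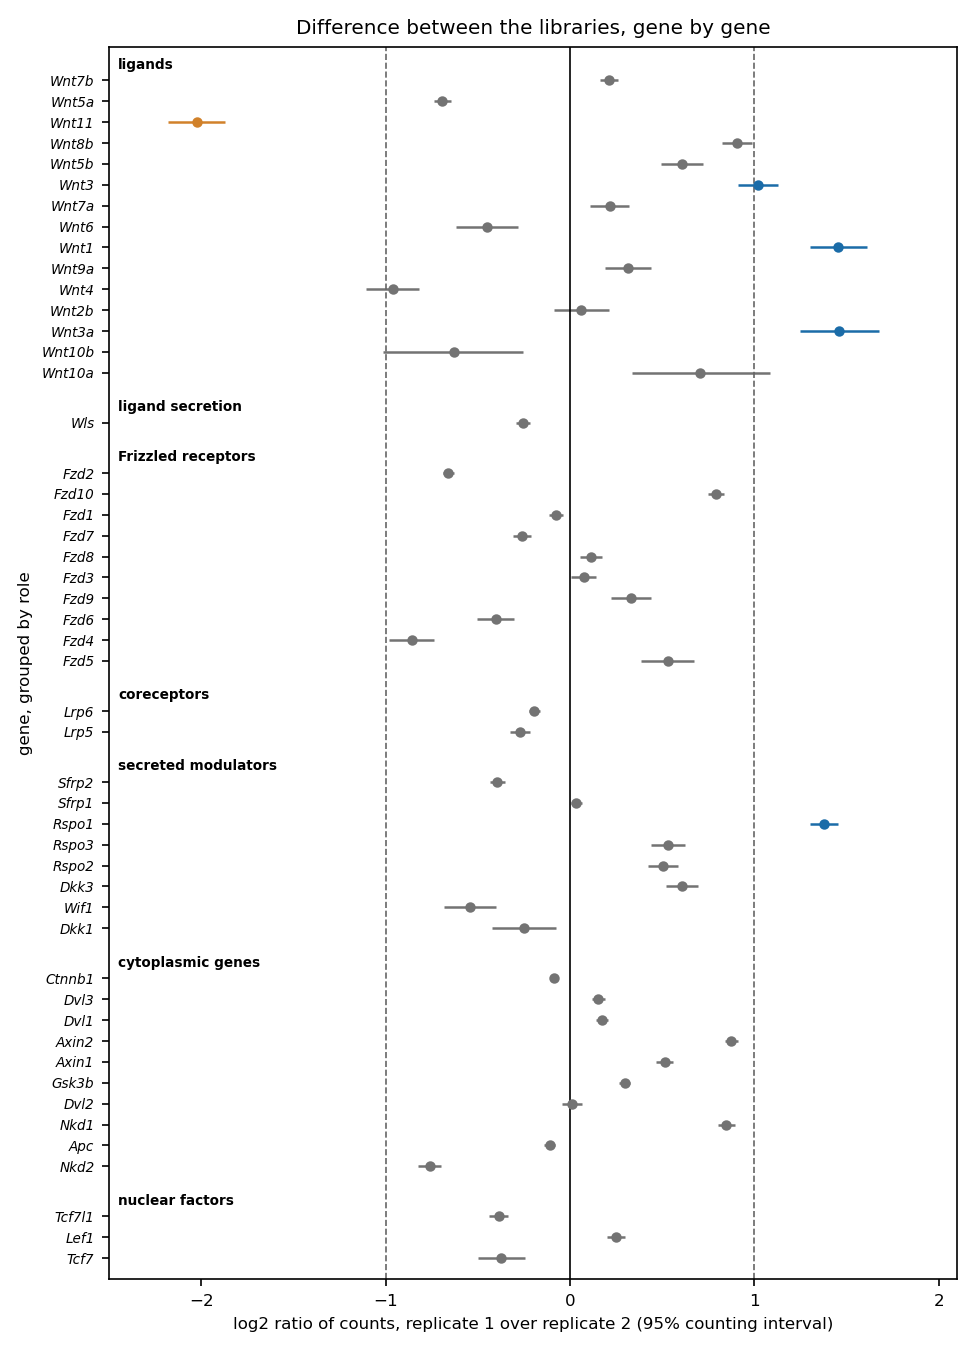
Log2 ratio of scaled counts, replicate 1 over replicate 2, for each of the 49 genes grouped by role, with bars for the 95% interval of counting error and dashed lines at a 2-fold difference. Wnt1, Wnt3, Wnt3a and Rspo1 lie at or beyond the right dashed line, Wnt11 lies beyond the left one at -2.02, and the coreceptors and nuclear factors stay between -0.39 and 0.25.

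Several ligand genes are close neighbours on mm10. Wnt3a and Wnt9a lie 16.2 kb apart on chromosome 11 in opposite directions, and Wnt9a had a log2 ratio of 0.32 beside 1.46 for Wnt3a. Wnt10b and Wnt1 lie 11.7 kb apart on chromosome 15, also in opposite directions, and Wnt10b had -0.63 beside 1.46 for Wnt1. Wnt6 and Wnt10a lie 6.19 kb apart on chromosome 1 in the same direction, with log2 ratios of -0.45 and 0.71. In none of these pairs did both genes differ by 2-fold in the same direction.

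Wls, which every secreted Wnt is thought to need, had 43.6 TPM in replicate 1 and 59.5 TPM in replicate 2, above any single ligand in each library. The Frizzled receptors were led by Fzd2, Fzd10 and Fzd1, which together held 67.0% of the summed Fzd TPM in replicate 1 and 67.5% in replicate 2. Fzd2 had 46.9 TPM in replicate 1 and 84.7 TPM in replicate 2, with a log2 ratio of -0.66 (-0.69 to -0.63). Fzd10, known from the dorsal neural tube, had 47.9 TPM in replicate 1 and 31.7 TPM in replicate 2, with a log2 ratio of 0.79 (0.75 to 0.83). Fzd1 had 32.2 TPM in replicate 1 and 38.8 TPM in replicate 2, a log2 ratio of -0.07. The summed Fzd TPM was 189.5 in replicate 1 and 229.8 in replicate 2, so the joint share was steady and not the total. Within that share the parts shifted. By TPM, Fzd10 narrowly led in replicate 1, with 25.3% of the Fzd total beside 24.7% for Fzd2. Fzd2 led in replicate 2, with 36.9% beside 13.8% for Fzd10. By counts, Fzd2 led in both libraries, with 13959 beside 12573 for Fzd10 in replicate 1 and 21573 beside 7108 in replicate 2.

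The close relatives Fzd1, Fzd2 and Fzd7 held 50.4% of the Fzd total in replicate 1 and 63.5% in replicate 2. Fzd7 had 16.5 TPM in replicate 1 and 22.5 TPM in replicate 2. The remaining receptors, Fzd8, Fzd3, Fzd9, Fzd6, Fzd4 and Fzd5, had means from 18.0 TPM for Fzd8 down to 1.76 TPM for Fzd5. Fzd4, known as the receptor of norrin in vessels, came nearest to a 2-fold difference in scaled counts in this family, with a log2 ratio of -0.86. Its TPM was 2.79 in replicate 1 and 5.80 in replicate 2, a ratio of 0.481 and so past 2-fold. None of the 10 was called.

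Both coreceptors were present and moved alike. Lrp6 had 24.4 TPM in replicate 1 and 28.8 TPM in replicate 2, with a log2 ratio of -0.19. Lrp5 had 11.8 TPM in replicate 1 and 18.5 TPM in replicate 2, with a log2 ratio of -0.27. Lrp6 was the higher one in each library, by 2.06 times in replicate 1 and 1.56 times in replicate 2.

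Inside the cell, Ctnnb1 was the highest of the 49 genes, with 272 TPM in replicate 1 and 332 TPM in replicate 2, a mean of 302 ± 42.5 TPM (SD, n = 2) and a log2 ratio of -0.09. Its protein also joins cadherins at cell contacts. The 3 Dishevelled genes were close in both libraries: Dvl3 had 62.6 TPM in replicate 1 and 65.4 TPM in replicate 2, Dvl1 had 54.4 and 56.8 TPM, and Dvl2 had 28.8 and 33.6 TPM. Their log2 ratios ran from 0.01 for Dvl2 to 0.17 for Dvl1, and on the log2(TPM + 1) scale all 3 were below 0, from -0.22 to -0.06. Gsk3b had 34.3 TPM in replicate 1 and 34.1 TPM in replicate 2, and Apc had 19.3 TPM in replicate 1 and 24.2 TPM in replicate 2. The log2 ratios of Gsk3b and Apc were 0.30 and -0.11, and none of the 10 cytoplasmic genes was called.

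Of the feedback genes, Axin2 and Nkd1 were the higher in replicate 1 and Nkd2 the lower, all short of 2-fold in scaled counts. Axin2, a scaffold that beta-catenin signalling induces, had 63.3 TPM in replicate 1 and 40.6 TPM in replicate 2, with a log2 ratio of 0.88 (0.84 to 0.91). Nkd1, which binds Dishevelled and dampens the signal, had 30.5 TPM in replicate 1 and 19.4 TPM in replicate 2, with a log2 ratio of 0.85 (0.80 to 0.89). Its relative Nkd2 went the other way, with 10.02 TPM in replicate 1 and 20.4 TPM in replicate 2. That TPM ratio of 0.491 passed 2-fold, while the log2 ratio of scaled counts was -0.76 (-0.82 to -0.70). Nkd1 was thus 3.05 times Nkd2 in replicate 1 and 0.951 times in replicate 2. Axin1, the constitutive relative of Axin2, had 65.1 TPM in replicate 1 and 30.5 TPM in replicate 2, but a count ratio of only 0.51 on the log2 scale. The gap between both scales lay in a short transcript described with the isoforms.

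Of the nuclear factors, Tcf7l1 had 23.2 TPM in replicate 1 and 36.2 TPM in replicate 2, with a log2 ratio of -0.39. Lef1, an activator with beta-catenin, had 25.5 TPM in replicate 1 and 25.1 TPM in replicate 2, with a log2 ratio of 0.25. Tcf7 had 5.66 TPM in replicate 1 and 7.84 TPM in replicate 2, with a log2 ratio of -0.37. Tcf7 was the lowest of them in both libraries, and the Lef1 values fell inside the range of Tcf7l1.

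Among secreted modulators, the frizzled-related proteins Sfrp2 and Sfrp1, which bind Wnt proteins, were abundant. Sfrp2 had 104 TPM in replicate 1 and 106 TPM in replicate 2, and Sfrp1 had 50.4 TPM in replicate 1 and 56.3 TPM in replicate 2, with log2 ratios of -0.39 and 0.04. Of the R-spondins, Rspo2 had a log2 ratio of 0.50 and Rspo3 of 0.53 beside Rspo1 at 1.38, with mean levels of 9.95 and 11.2 TPM, while Rspo4, outside the 49 and far lower, had -2.35. Dkk3, a divergent Dickkopf protein, had a log2 ratio of 0.61. Dkk1, an inhibitor that binds Lrp5 and Lrp6, was low at 2.66 TPM in replicate 1 and 3.63 TPM in replicate 2. Wif1, another Wnt-binding inhibitor, had 3.86 TPM in replicate 1 and 6.44 TPM in replicate 2, with a log2 ratio of -0.54.

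The deposited transcript tables divide each gene's TPM among annotated isoforms. These are estimates in which isoforms of a gene share reads, and 123 of the 145 transcripts have the same length in GENCODE M21 as in the deposited table. Of the 49 genes, 19 have 1 transcript listed and 30 have several. By TPM, the leading transcript was the same in both libraries for 25 of the 30 and differed for Wnt5b, Axin1, Tcf7, Sfrp2 and Rspo1. By counts Wnt5b still differed, while Axin1-201, Tcf7-201, Sfrp2-201 and Rspo1-201 led their genes in both libraries. Axin1-201, for instance, held 56.8% of the counts in replicate 1 and 56.6% in replicate 2. How often the leader differs among all genes was not measured. In 9 of the 47 genes at 1 TPM, transcripts not annotated as protein-coding held 25% or more of the TPM in at least 1 library. That is 19.1%, against 27.6% of the 13047 protein-coding genes at that level, so such transcripts were not more frequent in the pathway.

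For 3 genes, a short transcript without an annotated reading frame held much of the TPM, which divides by length, but less of the counts. Of the gene's counts, Sfrp2-202 held 27.6% in replicate 1 and 9.11% in replicate 2, and Rspo1-202 held 23.0% and 6.90%. Axin1-205 held only 3.23% of the counts in replicate 1 and 0.315% in replicate 2. Sfrp2-202, a processed transcript of 600 bases, had 63.6 TPM in replicate 1 and 32.5 TPM in replicate 2. The coding Sfrp2-201 had 38.5 TPM in replicate 1 and 73.3 TPM in replicate 2. The equal totals of Sfrp2 therefore held opposite differences, and its coding counts alone had a log2 ratio of -0.73. Rspo1-202, of 446 bases, had 51.5 TPM in replicate 1 and 7.11 TPM in replicate 2, whereas the coding Rspo1-201 had 27.9 TPM in replicate 1 and 14.9 TPM in replicate 2. With coding counts alone, the log2 ratio of Rspo1 was 1.10, and the TPM of its coding transcript was 1.87 times as high in replicate 1, short of 2-fold, against 3.60 times for the TPM of the whole gene.

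Axin1-205, a retained-intron transcript of 291 bases, had 30.9 TPM in replicate 1 and 2.71 TPM in replicate 2. Coding transcripts of Axin1 summed to 34.3 TPM in replicate 1 and 27.8 TPM in replicate 2. The 2-fold gap in the TPM of Axin1 was thus carried by the short transcript. Dvl1 held 62.3% of its TPM in replicate 1 and 54.3% in replicate 2 in transcripts not annotated as protein-coding, and Dvl2 held 38.2% in replicate 1 and 37.1% in replicate 2. These shares were similar in both libraries, unlike those of Sfrp2, Rspo1 and Axin1.

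**Figure D3:**
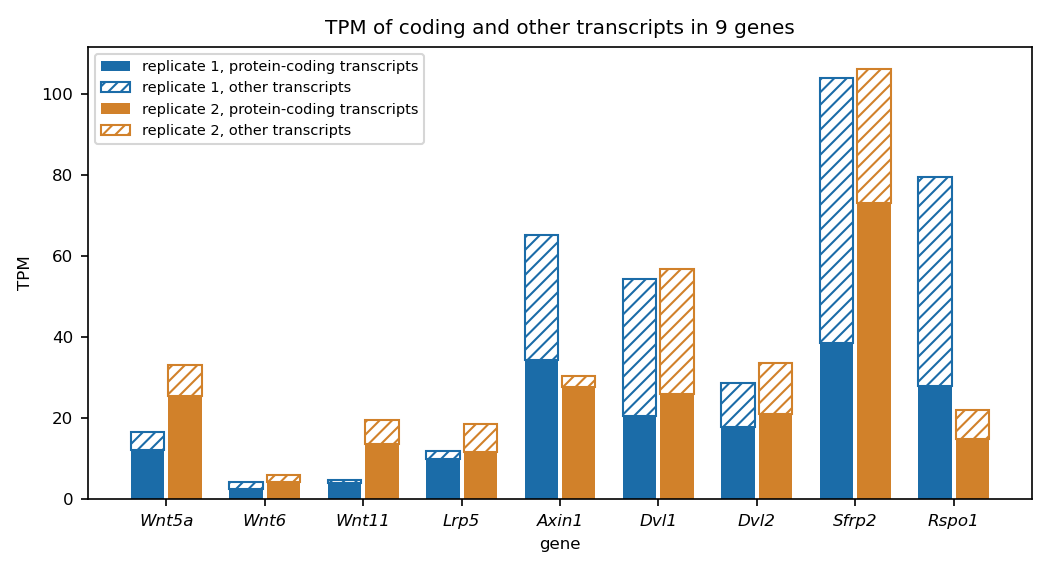
Bars of TPM for the 9 genes in which transcripts not annotated as protein-coding held 25% or more in a library, with replicate 1 left of replicate 2, filled for protein-coding and hatched for other transcripts. The hatched part is 51.5 TPM in replicate 1 and 7.11 TPM in replicate 2 for Rspo1, and 30.9 TPM in replicate 1 and 2.71 TPM in replicate 2 for Axin1.

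Wnt5b had the largest switch among coding isoforms. Wnt5b-203, with 372 codons, held 84.8% of the gene in replicate 1 and 14.9% in replicate 2, while Wnt5b-204, with 359 codons, held 7.30% in replicate 1 and 46.5% in replicate 2. Wnt5b-202 was listed at 0 in replicate 1 and held 38.6% in replicate 2. For Wnt5a, Wnt5a-201, with 380 codons, held 52.5% in replicate 1 and 40.9% in replicate 2, and Wnt5a-202, with 360 codons, held 20.97% in replicate 1 and 36.0% in replicate 2. Wnt11 was spread over several transcripts, with Wnt11-205 at 41.5% in replicate 1 and 37.5% in replicate 2 and Wnt11-203, of 99 codons, at 41.5% and 30.0%. Coding transcripts of Wnt11 alone had a log2 ratio of -1.72 in counts.

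The beta-catenin gene was read mostly from transcripts with the full frame of 781 codons. Ctnnb1-201 held 86.3% of its TPM in replicate 1 and 78.1% in replicate 2, and Ctnnb1-214, which has the same number of codons, held 0.955% in replicate 1 and 13.6% in replicate 2. Axin2-201, with 840 codons, held 69.8% of Axin2 in replicate 1 and 60.8% in replicate 2. The processed Axin2-203 had 1.09 TPM in replicate 1 and 8.46 TPM in replicate 2. With coding counts alone, Axin2 reached a log2 ratio of 1.03 and so joined the genes at least 2-fold higher in replicate 1. Lrp5-203, annotated for nonsense-mediated decay, had 0.69 TPM in replicate 1 and 5.21 TPM in replicate 2. Tcf7 had its TPM in Tcf7-201, at 47.8% in replicate 1 and 66.4% in replicate 2, and in Tcf7-202, with 303 codons in either.

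Splicing was read directly from the deposited mm9 junction list, in which counts were summed over both replicates, so no spread between libraries can be given and intervals cover counting error only. The share of inclusion was the mean of both flanking junctions over that mean plus the skipping junction. In Lef1, 685 and 789 reads entered and left the exon of 41 bases and 943 skipped it, an inclusion of 43.9% (95% interval 41.5% to 46.3%). By transcript TPM, isoforms with this exon made up 44.6% in replicate 1 and 54.4% in replicate 2. Lef1-204, which skips the exon and has 384 codons, held 53.2% of the gene in replicate 1 and 42.9% in replicate 2. Lef1-202, which includes it and has 369 codons, held 37.9% in replicate 1 and 40.7% in replicate 2. RNA for both reading-frame ends of Lef1 was thus present in both libraries.

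Exons in Tcf7 and Tcf7l1 were also partly skipped. An exon of 73 bases in Tcf7, again not a multiple of 3, was included in 49.1% (42.3% to 56.7%), and that of 42 bases in Tcf7l1 in 24.8% (21.7% to 27.9%). Tcf7l1-202, the isoform with the exon, held 10.8% of its gene in replicate 1 and 14.7% in replicate 2, below the share from junction reads. The exon of Axin1 was included in 36.1% (31.7% to 40.7%), and among the transcripts that span it 51.9% of the TPM in replicate 1 and 49.7% in replicate 2 held it. In Gsk3b the exon was included in 21.5% (18.1% to 25.1%), against 3.43% of the TPM of spanning transcripts in replicate 1 and 9.25% in replicate 2. The estimates by TPM and by junction reads thus differed in both directions, more than the counting intervals allow, and the reason was not tested.

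Such exons were also found in Apc, Dvl1 and Wls. In Apc an exon of 54 bases was included in 43.3% (37.3% to 49.97%), in Dvl1 one of 39 bases in 15.1% (13.2% to 17.1%), and in Wls one of 81 bases in 8.57% (7.17% to 10.1%). The exon lengths in Apc and Tcf7 match no exon of their gene in GENCODE M21. All but the exons of Lef1 and Tcf7 have lengths that are multiples of 3, which does not by itself mean that a frame is kept. In GENCODE M21 the Dvl1 exon has 0 coding bases and lies in the retained-intron transcript Dvl1-206. The Wls exon has 5 coding bases and lies in Wls-206, which is absent from the deposited transcripts. Genes without introns or with few junction reads, such as Fzd8, Fzd9 and Fzd10, could not be read in this way.

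**Figure D4:**
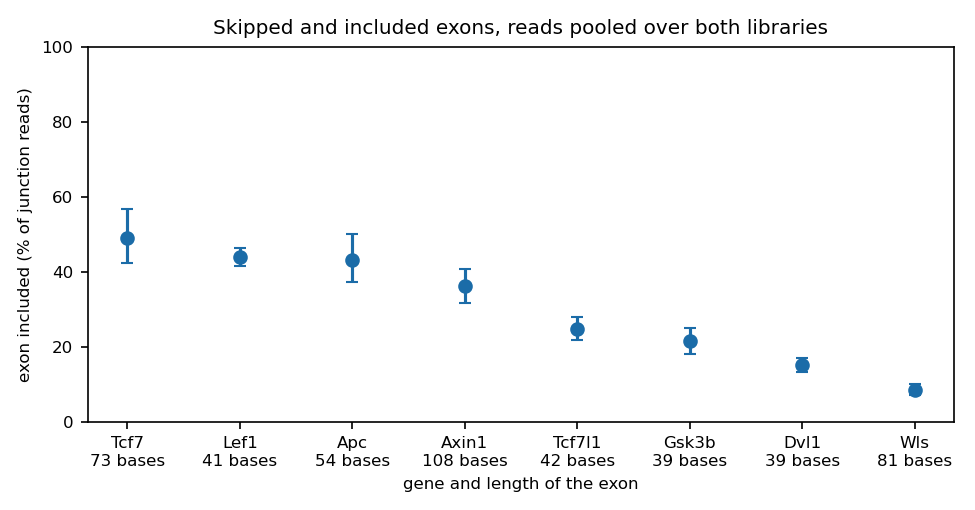
Inclusion of a skipped exon in percent of junction reads, summed over both libraries, for 8 genes ordered by inclusion, with the exon length under each name and bars for the 95% interval of counting error. Tcf7 and Lef1 lie highest at 49.1% and 43.9%, and Wls lowest at 8.57%.

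RefSeq promoter windows of 300 bases on GRCm38.p6, from 250 before to 50 after a start site, were matched for 34 of the 49 genes. The letters CTTTG followed by AA, AT, TA or TT, which TCF and LEF proteins are known to bind, were searched on both strands. They were found in 6 of the 34 genes, or 17.6%, against 18.9% of 27025 genes with a window, so the pathway's promoters held them no more often than others. The genes were Fzd7, Lef1, Wnt5b, Wnt11, Wnt3 and Dkk1. The Lef1 window begins at chr3:131156044 and that of Wnt5b at chr6:119449337, both inside the gene. In GENCODE M21 these genes start at 131110471 on the plus strand and 119544347 on the minus strand. Both windows thus belong to internal start sites. A match is a run of letters and not a binding site, and many known sites lie outside such windows. The windows of Wnt11, the gene with the largest difference, at chr7:98834862-98835161 on the plus strand, and of Dkk1, which has 2 matches, at chr19:30549447-30549746 on the minus strand, are printed with the matches in capitals.

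Wnt11: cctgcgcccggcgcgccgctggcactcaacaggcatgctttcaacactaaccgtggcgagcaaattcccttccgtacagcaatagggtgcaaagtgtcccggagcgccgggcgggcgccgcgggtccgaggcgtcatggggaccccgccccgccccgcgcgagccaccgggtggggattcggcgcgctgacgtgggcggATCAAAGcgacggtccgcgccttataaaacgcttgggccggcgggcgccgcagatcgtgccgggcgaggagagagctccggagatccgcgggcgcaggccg
Dkk1: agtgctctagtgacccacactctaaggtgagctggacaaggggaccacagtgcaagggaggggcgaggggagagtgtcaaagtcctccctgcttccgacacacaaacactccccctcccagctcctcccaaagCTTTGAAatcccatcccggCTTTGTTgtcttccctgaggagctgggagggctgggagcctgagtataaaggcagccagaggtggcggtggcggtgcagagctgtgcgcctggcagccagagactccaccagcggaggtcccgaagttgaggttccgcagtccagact

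In Wnt11 the match starts 51 bases before the start site and reads on the opposite strand. Those of Dkk1 start 117 and 98 bases before it, on the strand of the gene.

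A further 62 genes that make, receive or relay Wnt signals, none of them among the 49, were measured for context. Of these, 53 were at 1 TPM or more in both libraries. Wnt8a and Dkk4 had under 100 counts. Of the other 60, 1 was at least 2-fold higher in replicate 1 and 9 were at least 2-fold lower, with a median log2 ratio of -0.15. The shares of all genes were 5.05% higher and 6.34% lower. The higher one was Ccdc88c, which binds Dishevelled, at 24.8 TPM in replicate 1 and 12.6 TPM in replicate 2. The lower ones were Wnt16, Ror1, Kremen2, Lgr6, Tle2, Frzb, Sostdc1, Sfrp5 and Rspo4. Caudal Hox, muscle and somite, neural crest, surface ectoderm and mesenchyme markers had median log2 ratios of -4.94, -4.42, -1.21, -1.18 and -0.60. In the same order, 0 of 8, 1 of 7, 1 of 6, 1 of 7 and 3 of 8 were above 0. The mesenchyme sums were near equal, at 689 TPM in replicate 1 and 687 TPM in replicate 2. The part of these markers in the differences was not tested.

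Other ligands were low, from a mean of 0.12 TPM for Wnt8a to 1.60 TPM for Wnt2. Wnt16 had 0.47 TPM in replicate 1 and 1.48 TPM in replicate 2. In ligand processing and transport, the glypican Gpc3 led with 259 TPM in replicate 1 and 357 TPM in replicate 2. Notum, an enzyme that removes the Wnt lipid, was lowest at 1.91 TPM in replicate 1 and 4.32 TPM in replicate 2. Other receptors ran from Ryk, at 49.8 TPM in replicate 1 and 52.7 TPM in replicate 2, down to Lgr6, at 0.09 and 0.37 TPM. Adgra2 and Reck, partners of Wnt7 signalling in vessels, had log2 ratios of -0.89 and -0.69, while Wnt7a and Wnt7b had 0.22 and 0.21. Ror1, a receptor for Wnt5a, had 2.39 TPM in replicate 1 and 6.48 TPM in replicate 2, and Kremen2, a receptor for Dickkopf proteins, 1.26 TPM in replicate 1 and 5.25 TPM in replicate 2. In Wnt5a and Ror1 replicate 2 was thus the high library.

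Other secreted modulators ran from Apcdd1, a Wnt inhibitor, at 62.6 TPM in replicate 1 and 53.5 TPM in replicate 2, to Dkk4 at 0.02 and 0.26 TPM. Frzb, Sostdc1, Sfrp5 and Rspo4 had log2 ratios of -1.34, -1.47, -1.69 and -2.35. Counts were low for Sfrp5, at 75 in replicate 1 and 238 in replicate 2, and for Rspo4, at 20 and 102. Frzb and Sostdc1 are inhibitors known from skeletal and epithelial tissue. In the cytoplasm, Csnk1e led at 236 TPM in replicate 1 and 213 TPM in replicate 2 and Dact2 was lowest at 0.78 and 1.18 TPM. Of the other nuclear genes, the cell-cycle gene Ccnd1 led at 166 TPM in replicate 1 and 124 TPM in replicate 2, and Sp8 was lowest at 5.63 and 4.68 TPM. Tle2, a corepressor, had 23.8 TPM in replicate 1 and 60.2 TPM in replicate 2, a log2 ratio of -1.13. Tcf7l2, the remaining TCF gene, had 78.4 TPM in replicate 1 and 79.5 TPM in replicate 2, above Lef1, Tcf7 and Tcf7l1 in both libraries. Genes known as targets or feedback genes of beta-catenin did not move as 1 group: Sp5 had a log2 ratio of 0.90, Rnf43 0.19, Myc 0.03, Znrf3 -0.39, Lgr5 -0.81 and Notum -0.99, beside Axin2 at 0.88, Nkd1 at 0.85 and Nkd2 at -0.76 among the 49.

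The mm9 gene table of the authors gives 2 RPKM values for each gene with no link to a replicate. All 49 genes were found there, and the mean RPKM ranked them nearly as the mean TPM did, with a Spearman correlation of 0.984 across genes that share the same libraries. Values were smaller on that scale, and 31 of the 49 reached 1 RPKM in both values. On mm10, 5 of the 49 genes overlap another gene on the same strand and 20 overlap one on the opposite strand. The libraries are stranded per the labels, and the overlapping genes on the same strand had at most 1.25 TPM.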

How the data were processed

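The authors deposited, for each library, expected counts, TPM and FPKM per gene and transcript, made on mm10 with annotation M4 according to their notes. The sources used here name no aligner or quantifier. The authors also deposited an mm9 gene table with RPKM values and an mm9 list of junction read counts. Symbols, coordinates and transcript types came from GENCODE M21 by identifier (42462 of 43346 Ensembl genes matched). Expected counts were rounded and scaled by TMM (edgeR 4.0.16, R 4.3.3), the log2 ratio of replicate 1 over replicate 2 used a prior count of 0.5, and intervals are exact 95% binomial intervals (scipy 1.17.1) that cover counting error only. Without 2 groups no test was possible. The ratio and its threshold were tried on simulated counts drawn from a profile shared by both libraries. That does not show how the threshold behaves for libraries that differ as these do. Rows outside Ensembl genes, 4.67% of counts in replicate 1 and 3.30% in replicate 2, stayed out of scaling. Junction reads were used where each of the 3 junctions had 50 reads and the exon at most 300 bases. Exon sequences were read from mm10 where exon and flanking intron lengths matched; promoters are RefSeq windows on GRCm38.p6. The alternatives were other scalings (DESeq2 1.42.0), pseudocounts, minimum counts, levels and thresholds.

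The 49 genes, the other pathway genes and the markers were chosen with earlier results of these data known. Values, in part without counts or intervals, are given for genes at least 2-fold apart and the 3 highest of each role. They are also given for genes under 1 TPM and paralog pairs. For isoforms they are given where the leading transcript differed or held under 50%. Of other pathway genes, the highest and lowest of each list are given. Those at least 2-fold apart are given too, some by the log2 ratio alone. Genes beyond this rule, such as Sp5, Myc, Rnf43, Znrf3, Lgr5, Adgra2, Reck and Tcf7l2, were chosen after their values were seen.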

Additional observations from a re-analysis of the deposited data

How the results depend on the processing

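The count of genes at 1 TPM in both libraries stayed between 44 and 49 with thresholds of 0.5 and 2 TPM, with FPKM, and with coding transcripts alone (an alternative chosen after seeing the data), and fell to 31 on the mm9 RPKM values. With 1 library alone it was 47 to 48. Scaling by total counts and log2(TPM + 1) each put the median of all genes at -0.12, against 0.01 with TMM. The median of the 49 genes then became -0.052 and -0.076, against 0.07 with TMM; relative to all genes it was 0.07 and 0.04 higher. With total counts 2 genes were at least 2-fold lower in replicate 1, Wnt4 joining Wnt11, and Wnt3 fell short. With log2(TPM + 1), Wnt3 and Wnt3a fell short and Axin1 joined. Without the added 1, the TPM ratio of Wnt3a was 2.39, and those of Wnt4, Fzd4 and Nkd2 passed 2-fold downward, at 0.448, 0.481 and 0.491. With a minimum of 1000 counts Wnt3a was left out. Wnt1, Rspo1 and Wnt11 were called under every alternative run. The TPM of coding transcripts was not among those alternatives for ratios, and on it Rspo1 fell short of 2-fold, at 1.87. Coding counts alone, chosen after seeing the data, called 5 genes higher, Axin2 added. The share of Wnt7b among ligands was 22.8% and that of Fzd2 among Fzd genes 30.2% by counts. Wnt7b was not the leading ligand throughout by counts. It had 7020 beside 6641 for Wnt5a in replicate 1, but 5935 beside 10498 in replicate 2. Several mean isoform shares within a gene moved far when counts replaced TPM. Rspo1-201 went from 51.4% to 85.0%, Sfrp2-201 from 53.0% to 81.4% and Axin1-201 from 35.9% to 56.7%. Wnt5a-201 went from 46.7% to 70.7%, Axin2-201 from 65.3% to 84.4% and Wnt11-205 from 39.5% to 55.8%. The isoforms checked for Lef1, Tcf7, Tcf7l1, Ctnnb1, Wnt5b and Dvl1 changed less. With 1 library alone, the TPM shares of Wnt7b and Fzd2 ran from 19.9% to 23.5% and from 24.7% to 36.9%. A single library lies within 1 SD of the mean of 2 by construction, and without either library no ratio exists, so nothing about stability follows. On log2(TPM + 1), 7 of the 49 genes changed the sign of their ratio, and with DESeq2 size factors or a prior count of 5 none did. No paired analysis was possible because there is 1 group. Protein identities between paralogs were not computed.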
